A study of Homo sapiens with 20 samples.

Results

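The C/EBP genes encode transcription factors named for binding CCAAT/enhancer elements. The 6 genes described here, CEBPA, CEBPB, CEBPD, CEBPE, CEBPG and CEBPZ, were taken by their symbols from RNAseq and ATACseq data of HL60 cells. All 6 were present among the 28051 named genes of the RNAseq files, and all 6 passed the filter on low values, which left 13256 genes for testing. Of the 8286 deposited ATACseq regions, 2 listed a member as a nearby gene, 1 for CEBPB and 1 for CEBPD. HL60 is a human acute myeloid leukemia cell line of promyelocytic type, which all-trans retinoic acid (ATRA) drives toward neutrophil-like cells.

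The study compared HL60 cells with a disrupted hexokinase 3 gene (HK3-null) with control cells that express Cas9. Both received 1 µM ATRA or 0.01% DMSO for 36 h, which gave 4 groups with 3 RNAseq and 2 ATACseq replicates each. Knockouts were made with a lentiviral CRISPR vector that carries Cas9 and a puromycin marker, so all 4 groups had Cas9. Every HK3-null library carries a single knockout label and every control library a single Cas9 label. Replicates of either are thus not known to come from more than 1 clone, and p values then measure the spread between cultures alone. Between genotypes, loss of HK3 and other differences between the lines cannot be told apart.

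CEBPA, CEBPB, CEBPD, CEBPE and CEBPG are basic leucine zipper (bZIP) proteins that bind DNA as homodimers or heterodimers. In the granulocyte lineage, CEBPA is required for commitment and early granule genes, CEBPE for the later secondary granules, and CEBPB and CEBPD act in emergency granulopoiesis and the acute phase response. CEBPG lacks a classical activation domain and pairs with other bZIP proteins, ATF4 among them. CEBPZ is not a bZIP protein in spite of its symbol. It is a CCAAT-binding nuclear protein of the NOC1 family, whose yeast relative acts in ribosome assembly.

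Sequences are shown for the members whose promoter or nearby region holds something that the counts can be set beside. Each promoter is the 250 bases before a RefSeq start (GRCh38.p14), read 5′ to 3′ along the gene, with matches to 5 motifs in capitals. The motifs, searched on both strands, were the C/EBP palindrome TTGCNNCAA, the NF-Y box CCAAT, the PU.1 core GAGGAAG, the cAMP response element TGACGTCA, and the retinoid direct repeat, which is GGTCA followed by 5 free bases and GGTCA again. The CEBPB promoter at chr20:50190580-50190829 (plus strand) precedes the member that ATRA raised most. The CEBPE promoter at chr14:23119256-23119505 (minus strand) precedes the member with the highest level per kb of exon after ATRA. The CEBPG promoter at chr19:33373459-33373708 (plus strand) and the CEBPZ promoter at chr2:37231597-37231846 (minus strand) precede the members that ATRA lowered. The last sequence is the CEBPB ATACseq region at chr20:50194406-50194681 in hg38, plus strand.
CEBPB promoter: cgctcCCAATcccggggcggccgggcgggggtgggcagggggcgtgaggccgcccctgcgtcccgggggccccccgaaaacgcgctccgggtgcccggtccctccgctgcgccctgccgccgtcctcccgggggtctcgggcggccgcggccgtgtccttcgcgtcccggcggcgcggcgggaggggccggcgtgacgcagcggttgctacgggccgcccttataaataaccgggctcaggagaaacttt
CEBPE promoter: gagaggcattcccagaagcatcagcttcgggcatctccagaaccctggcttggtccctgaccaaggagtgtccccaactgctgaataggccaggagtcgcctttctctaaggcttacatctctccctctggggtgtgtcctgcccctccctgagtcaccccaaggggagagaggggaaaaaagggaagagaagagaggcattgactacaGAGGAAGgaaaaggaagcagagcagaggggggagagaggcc
CEBPG promoter: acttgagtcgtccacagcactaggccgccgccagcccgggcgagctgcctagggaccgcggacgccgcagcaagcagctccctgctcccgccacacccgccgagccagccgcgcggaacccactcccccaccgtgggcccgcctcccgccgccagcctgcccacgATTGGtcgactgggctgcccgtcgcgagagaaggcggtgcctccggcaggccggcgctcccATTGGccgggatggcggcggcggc
CEBPZ promoter: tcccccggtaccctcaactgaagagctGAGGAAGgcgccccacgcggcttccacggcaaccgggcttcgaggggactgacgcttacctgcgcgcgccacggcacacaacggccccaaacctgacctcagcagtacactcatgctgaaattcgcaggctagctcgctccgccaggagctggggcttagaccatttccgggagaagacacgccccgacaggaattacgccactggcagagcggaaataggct
CEBPB region: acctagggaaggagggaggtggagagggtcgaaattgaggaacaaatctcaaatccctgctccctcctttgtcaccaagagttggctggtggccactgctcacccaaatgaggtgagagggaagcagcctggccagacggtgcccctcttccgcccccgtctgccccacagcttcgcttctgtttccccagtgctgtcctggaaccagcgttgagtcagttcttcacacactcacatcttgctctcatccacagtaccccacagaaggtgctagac

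The NF-Y box stood 245 bases before the CEBPB start and, on the opposite strand as ATTGG, 85 and 24 bases before the CEBPG start. It occurs in 32.0% of all 35116 promoters of this length. The PU.1 core stood 41 bases before the CEBPE start and 223 bases before the CEBPZ start, and 11.2% of promoters hold it. These distances are from RefSeq starts. In GENCODE v44, another annotation, CEBPE spans chr14:23117036-23120256, so the CEBPE window lies inside that gene model. The CEBPA promoter held none of the 5 motifs in this window, and neither did the second annotated starts of CEBPB and CEBPG. None of the windows read, which cover every member but CEBPD, held the C/EBP palindrome, the cAMP response element or the retinoid repeat, which occur in 1.62%, 1.65% and 0.077% of promoters. A match is only a run of letters here, and binding was not measured.

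The targeted gene was read first. Without ATRA, HK3 (on chromosome 5) stood at 90, 65 and 105 normalized counts in the control replicates and at 344, 302 and 346 in those with the knockout label. After ATRA its counts were 1305, 1298 and 1850 for the controls, against 1384, 1285 and 1975 for the knockout label. RNA of the targeted gene was thus not reduced in either treatment. A small insertion or deletion can disrupt a protein without lowering its RNA. The study checked its knockout lines by sequencing the cut site and by mass spectrometry of the protein. After vitamin D treatment, HK3 peptides were found in control HL60 cells and not in pooled HK3 knockout clones. The RNA level therefore does not check the label, and HK3-null stands below as the label of those libraries. A normalized count is a read count per gene that the authors scaled between libraries and stored as a log2 value.

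The scaled totals ran from 29053838 to 31548189 per library, and the depth before scaling, estimated from gaps in the whole numbers, from 22700000 to 37000000 counts. The library Cas9 control DMSO 1 stood apart, with 16750 detected genes where the rest had between 15031 and 15801, and it carried 321 counts of COL1A1 against at most 33 elsewhere. Without it the members that passed in the 5 comparisons below numbered 5, 6, 4, 5 and 1, in place of 5, 5, 5, 5 and 2. The HL60 label was checked against 9 promyelocyte genes, all of which were expressed. MPO, myeloperoxidase, had at least 440811 counts in every library. Of 18 genes of other lineages, 15 stayed under 50 counts in all libraries, and MS4A1, HBG2, PF4 and ALB were at 0 in all 12. The summed level of these 18 genes was 128 to 451 in Cas9 control DMSO, 273 to 386 in Cas9 control ATRA, 582 to 672 in HK3-null DMSO and 1371 to 1649 in HK3-null ATRA. Most of the last sum came from PECAM1, which myeloid cells also express. Its part in the results was not tested.

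Chromosome-wide shifts touch some values below. Tested genes of chromosome 8 had a median log2 difference (HK3-null minus Cas9 control) of 1.09 in DMSO and 1.06 in ATRA. For chromosome 5 the medians were -0.75 and -0.78. Chromosomes 15 (-0.94 and -0.97), 13 (-0.57 and -0.57) and 6 (0.53 and 0.58) were shifted as well. CEBPD lies on chromosome 8. The chromosomes of the other members, 2 (CEBPZ), 14 (CEBPE), 19 (CEBPA and CEBPG) and 20 (CEBPB), had medians between -0.02 and 0.12 in these comparisons.

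CEBPA was the leading member before treatment when levels were set per kb of exon, and CEBPE took its place after ATRA. In Cas9 control with DMSO, CEBPA stood at 4834 ± 644 normalized counts per kb (SD, n = 3) and CEBPE at 2727 ± 169. With ATRA in the same cells CEBPE stood at 7058 ± 617 and CEBPA at 5073 ± 483. The same change of order occurred under the HK3-null label, where CEBPA led with 8278 ± 695 in DMSO and CEBPE with 10190 ± 310 in ATRA. Per kb, the libraries of these 2 genes overlapped in none of the 4 groups. The change of order rests on the exon lengths, 2.601 kb for CEBPA and 1.764 kb for CEBPE. Before division by length, the ATRA means of CEBPA and CEBPE were 13194 and 12450 counts in Cas9 control. Under the HK3-null label they were 18316 and 17979, and the ATRA libraries of the 2 genes overlapped in both genotypes. The annotation used for counting is not stated.

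Per kb, CEBPB moved furthest in the order. It was the lowest member in both DMSO groups, at 261 ± 30.8 per kb in Cas9 control and 347 ± 67.1 under the HK3-null label, and the third highest in both ATRA groups, at 2028 ± 268 and 5022 ± 638. In Cas9 control DMSO its libraries overlapped those of CEBPD, and in HK3-null DMSO those of CEBPD and CEBPG overlapped. All other neighbours in the order were separated in every group. Part of this order also rests on exon length. Before division by length, CEBPD was the lowest member in Cas9 control DMSO, at 333 to 349 counts against 447 to 545 for CEBPB. In Cas9 control ATRA the counts of CEBPB (3164 to 4061) overlapped those of CEBPZ (2951 to 3482). The 6 members together rose from 9980 ± 671 to 15990 ± 783 per kb with ATRA in Cas9 control and from 15200 ± 779 to 24830 ± 1604 under the HK3-null label, as sums with no test. Within these sums the share of CEBPB went from 2.61% to 12.7% and from 2.29% to 20.2%. The share of CEBPZ went from 12.3% to 5.72% and from 7.16% to 2.88%.

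**Figure D1:**
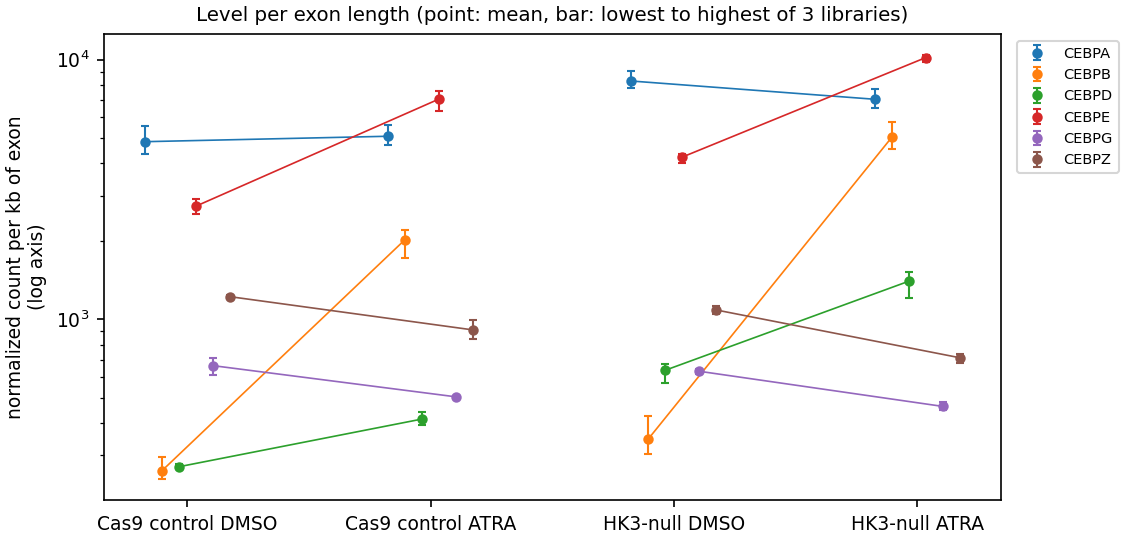
Normalized RNAseq count per kb of exon (log axis) of the 6 C/EBP genes in the 4 groups. Points are means, bars run from the lowest to the highest of 3 libraries, and lines join DMSO and ATRA of 1 genotype. CEBPA is highest in both DMSO groups and CEBPE in both ATRA groups, and CEBPB goes from the lowest to the third place.

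The first comparison asked how ATRA changed the family in Cas9 control cells. CEBPB, CEBPE and CEBPD rose, CEBPG and CEBPZ fell, and CEBPA did not pass the test. A gene passed at an adjusted p under 0.05 in limma over all tested genes. Across all genes 20.3% rose and 21.3% fell, so the 3 of 6 members that rose and the 2 of 6 that fell stand beside a broad response. In bulk libraries fewer cells of a type and less RNA per cell cannot be told apart.

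CEBPB had 545, 447 and 447 normalized counts with DMSO and 4061, 3964 and 3164 with ATRA, and the groups did not overlap. Its log2 fold change was 2.96 (SE 0.15, 95% interval 2.63 to 3.28, limma adjusted p = 5.12e-08). Of 12476 tested genes with at least 1 count in every library, 0.96% had a larger increase. CEBPE had 4812, 4511 and 5108 counts with DMSO and 11234, 12783 and 13333 with ATRA. All ATRA libraries lay above all DMSO libraries, and the log2 fold change was 1.37 (SE 0.07, limma adjusted p = 5.12e-08). CEBPD had 349, 335 and 333 counts with DMSO and 509, 493 and 551 with ATRA, a separated but smaller increase of 0.61 on the log2 scale (SE 0.10, limma adjusted p = 0.000506).

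CEBPG, the dimer partner, had 2743, 2870 and 2468 counts with DMSO and 2063, 2053 and 2009 with ATRA. The groups were separated and the log2 fold change was -0.40 (SE 0.06, limma adjusted p = 0.000239). CEBPZ had 4274, 4365 and 4256 counts with DMSO and 3482, 2951 and 3166 with ATRA, with a log2 fold change of -0.43 (SE 0.06, limma adjusted p = 0.0002). These 2 decreases were modest, at 0.76 and 0.74 times the DMSO level. CEBPA had 14453, 12021 and 11245 counts with DMSO and 12264, 14623 and 12694 with ATRA, and the groups overlapped. Its log2 difference of 0.07 had an interval of -0.16 to 0.30 (limma adjusted p = 0.613).

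The second comparison put the same question to the libraries labelled HK3-null, and the same 5 members passed in the same directions. CEBPB had 573, 560 and 780 counts with DMSO and 8336, 10562 and 8807 with ATRA. The groups lay far apart, and the log2 fold change was 3.87 (SE 0.15, limma adjusted p = 4.65e-09). Only 54 of the 12476 ranked genes rose as much or more, CEBPB counted among them. CEBPE had 7629, 7076 and 7626 counts with DMSO and 17359, 18390 and 18187 with ATRA, a separated increase of 1.27 on the log2 scale (SE 0.07, limma adjusted p = 5.96e-08). CEBPD had 840, 715 and 840 counts with DMSO and 1511, 1848 and 1911 with ATRA. Its groups were also separated, and the log2 fold change was 1.13 (SE 0.10, limma adjusted p = 2.8e-06).

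CEBPG went from 2559, 2619 and 2505 counts to 1945, 1859 and 1824, with a log2 fold change of -0.45 (SE 0.06, limma adjusted p = 6.17e-05). CEBPZ went from 3779, 3703 and 3972 counts to 2578, 2533 and 2391, with a log2 fold change of -0.61 (SE 0.06, limma adjusted p = 8.22e-06). Both were separated from their DMSO libraries. CEBPA had 23580, 20840 and 20170 counts with DMSO and 16954, 19990 and 18005 with ATRA. Its libraries did not overlap either, but the difference of -0.23 did not pass (SE 0.10, limma adjusted p = 0.0867). Without the library Cas9 control DMSO 1 the same difference passed (limma adjusted p = 0.0497), and over all alternatives the adjusted p ran from 0.0201 to 0.274. Among all genes 24.0% rose and 25.1% fell in this comparison.

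**Figure D2:**
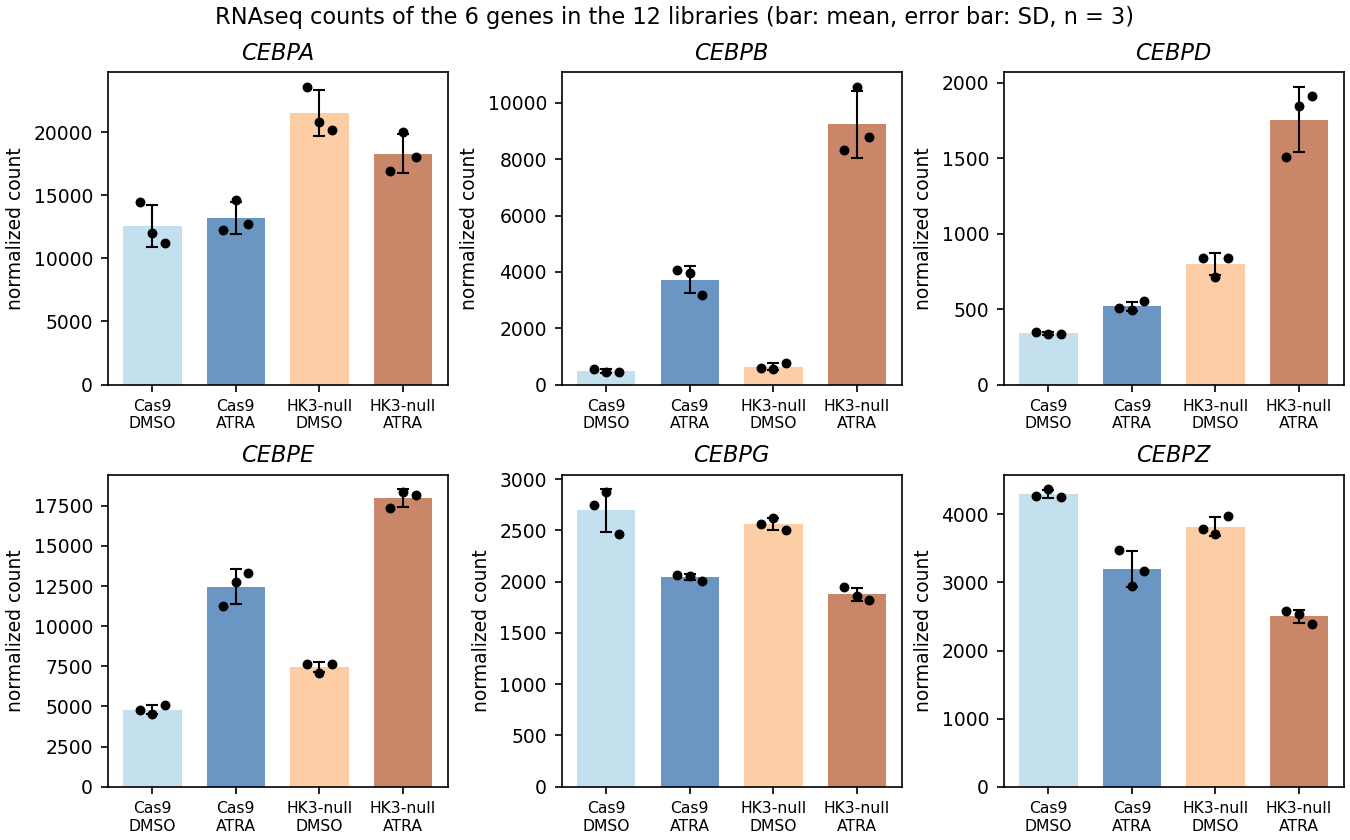
Normalized RNAseq counts (linear axes from 0) of the 6 C/EBP genes, 1 panel a gene. Bars are group means, error bars the SD and points the 3 libraries of each group. CEBPB is low in both DMSO groups and highest in HK3-null ATRA, CEBPE and CEBPD are higher with ATRA, CEBPG and CEBPZ are lower with ATRA, and CEBPA differs mainly between the genotypes.

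The third comparison set the libraries labelled HK3-null against Cas9 control without ATRA. CEBPA, CEBPD, CEBPE and CEBPB were higher and CEBPZ was lower, while CEBPG did not pass. The shares over all genes were 27.9% higher and 27.1% lower. CEBPA, at 20170 to 23580 counts against 11245 to 14453, was higher by 0.78 on the log2 scale (SE 0.10, limma adjusted p = 6.95e-05). CEBPE, at 7076 to 7629 counts against 4511 to 5108, was higher by 0.63 (SE 0.07, limma adjusted p = 1.36e-05). These are the 2 members with the best known part in granulocyte commitment and maturation, and in neither did the groups overlap.

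CEBPD, at 715 to 840 counts against 333 to 349, was higher by 1.23 on the log2 scale (SE 0.10, limma adjusted p = 1.14e-06). That difference lies close to the chromosome 8 median of 1.09. With the chromosome median subtracted it was 0.14 and did not pass (limma adjusted p = 0.254, against 4.43e-07 at the other end of the alternatives tried). The genes around CEBPD moved likewise. SPIDR, which CEBPD's ATACseq region overlaps, was higher by 0.89, PRKDC by 0.62, MCM4 by 0.58 and UBE2V2 by 1.19 (limma adjusted p between 1.97e-07 and 0.000322).

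CEBPB, at 560 to 780 counts against 447 to 545, was higher by 0.40 on the log2 scale (SE 0.15, limma adjusted p = 0.0392). CEBPZ, at 3703 to 3972 counts against 4256 to 4365, was lower (log2 difference -0.17, SE 0.06, limma adjusted p = 0.0329). Neither group overlapped, but both calls were near the threshold. The CEBPB call was lost without Cas9 control DMSO 2 (adjusted p = 0.114), Cas9 control DMSO 3 (0.11) or HK3-null DMSO 3 (log2 difference 0.25, adjusted p = 0.158), and its adjusted p over all alternatives ran from 0.026 to 0.158 (limma). The CEBPZ call was lost without any 1 of the 3 Cas9 control DMSO libraries or without HK3-null DMSO 1 or 2, with limma adjusted p between 0.0594 and 0.107. CEBPG, at 2505 to 2619 against 2468 to 2870 counts, overlapped, with a log2 difference of -0.07 and an interval of -0.20 to 0.06 (limma adjusted p = 0.327).

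The fourth comparison repeated this with ATRA present, where 4 members were again higher, CEBPZ was lower and CEBPG did not pass. Of all genes 29.6% were called higher and 29.5% lower. CEBPB, at 8336 to 10562 counts against 3164 to 4061, was higher by 1.31 on the log2 scale (SE 0.15, limma adjusted p = 1.56e-05). CEBPA, at 16954 to 19990 against 12264 to 14623, was higher by 0.47 (SE 0.10, limma adjusted p = 0.00224). CEBPE, at 17359 to 18390 against 11234 to 13333, was higher by 0.53 (SE 0.07, limma adjusted p = 4.36e-05).

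CEBPD, at 1511 to 1911 counts against 493 to 551, was higher by 1.76 on the log2 scale (SE 0.10, limma adjusted p = 6.15e-08). Here a difference of 0.70 remained after the chromosome 8 median was subtracted, and it passed (limma adjusted p = 0.000116, the highest over its alternatives, which reached down to 1.69e-08). CEBPZ, at 2391 to 2578 against 2951 to 3482 counts, differed by -0.35 (SE 0.06, limma adjusted p = 0.000414). CEBPG, at 1824 to 1945 against 2009 to 2063 counts, differed by -0.12 (interval -0.25 to 0.00, limma adjusted p = 0.0897). With the replicate number as a block the same CEBPG difference passed (adjusted p = 0.0259, limma), and without Cas9 control DMSO 3 it also passed (adjusted p = 0.0431), within a range over the alternatives of 0.00463 to 0.197.

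The last comparison asked whether the ATRA response itself differed between the genotypes. CEBPB and CEBPD responded more strongly in the libraries labelled HK3-null, and the other 4 members did not pass. The interaction of genotype and treatment passed for 9.12% of all genes, or 1209 genes, and for 2898 with the replicate number as a block. For CEBPB the response was 0.91 larger on the log2 scale (SE 0.21, interval 0.45 to 1.37, limma adjusted p = 0.0199), which is 14.6-fold against 7.76-fold. For CEBPD it was 0.52 larger (SE 0.14, interval 0.22 to 0.83, limma adjusted p = 0.0384), or 2.2-fold against 1.53-fold. The intervals for CEBPA (-0.63 to 0.02), CEBPE (-0.31 to 0.12), CEBPG (-0.23 to 0.13) and CEBPZ (-0.37 to 0.01) bound what could have been missed. With quantile normalization CEBPA (-0.49, limma adjusted p = 0.0327) and CEBPZ (-0.28, limma adjusted p = 0.0465) also passed, both with the opposite sign to CEBPB and CEBPD. Over all alternatives their adjusted p reached 0.599 and 0.465.

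Both interaction calls depended on single libraries. For CEBPB the call was lost without HK3-null ATRA 2 (limma adjusted p = 0.0513), HK3-null DMSO 1 (0.0542) or HK3-null DMSO 2 (0.054), while over all alternatives the size stayed between 0.80 and 1.06 and the adjusted p between 0.00613 and 0.0826. For CEBPD the call was kept without Cas9 control ATRA 3 or HK3-null ATRA 1 and lost without any other single library. Over all alternatives its limma adjusted p ran from 0.0107 to 0.0959 and its size from 0.45 to 0.65.

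**Figure D3:**
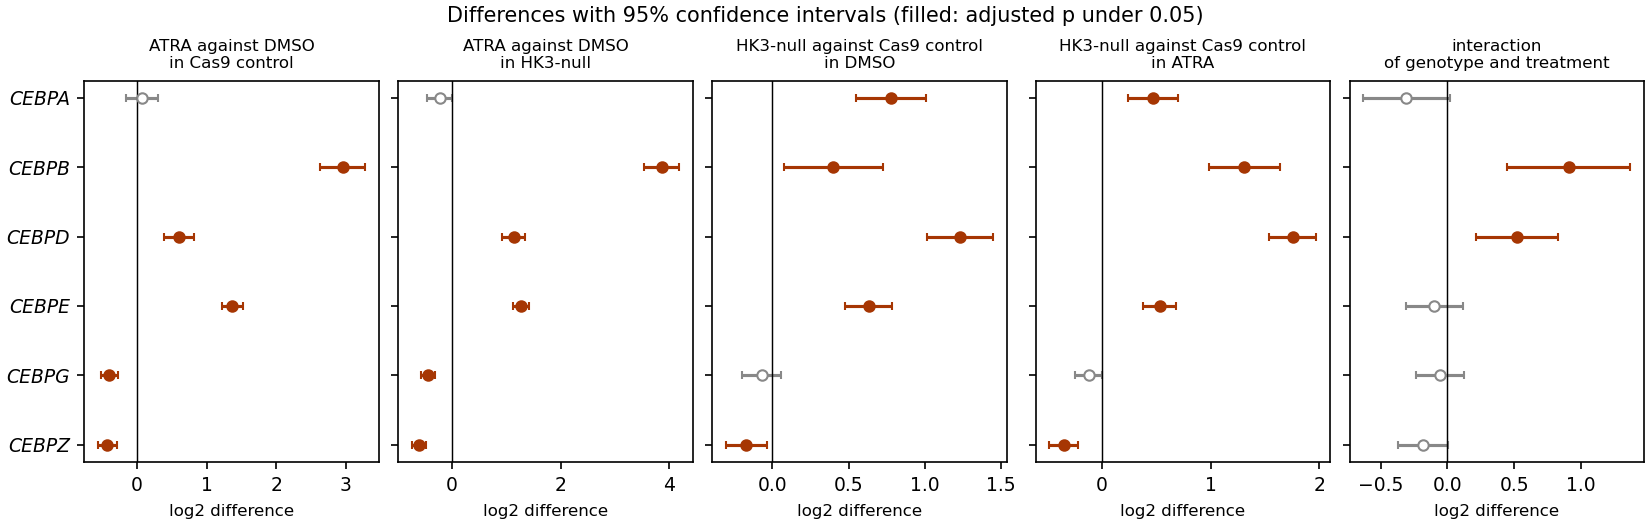
Log2 differences of the 6 C/EBP genes in 5 comparisons, 1 panel each with its own linear axis, from the limma fit over 12 libraries. Bars are 95% intervals, and filled points passed an adjusted p under 0.05. CEBPB has the largest ATRA differences, CEBPD the largest genotype differences, and only CEBPB and CEBPD are filled in the interaction panel. With the chromosome median subtracted, which is not drawn, CEBPD differs by 0.14 in DMSO and 0.70 in ATRA between genotypes. The largest are then CEBPA in DMSO (0.71) and CEBPB in ATRA (1.255).

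The ATACseq data, which measure how open the chromatin is, gave 1 region each for CEBPB and CEBPD. The deposited regions are a selection, since all 8286 differ at least 1.5-fold between the ATRA means of the genotypes. That comparison is therefore only described, and so are the ATRA responses that share its libraries. The genotype comparison in DMSO shares no library with the selection but compares the same genotypes. A genotype difference present in both treatments was thus selected for as well. None of the deposited regions listed CEBPA, CEBPE, CEBPG or CEBPZ, so their chromatin could not be read here. The 2 regions were given with a length equal to end minus start, and coordinates here count from 1.

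The CEBPB region, printed above, is 276 bases long, lies 1.74 kb past the 3′ end of CEBPB (chr20:50190830-50192668 in GENCODE v44, plus strand) and overlaps no annotated gene. It also listed CEBPB-AS1. Its signal, a fragment density at equal tag numbers, was 7.38 and 7.5 in Cas9 control DMSO and 18.6 and 10.1 in Cas9 control ATRA. Under the HK3-null label it was 9.5 and 13.2 in DMSO and 81.1 and 50.1 in ATRA. The 2 HK3-null ATRA libraries stood above all other 6, and the other 3 groups lay at or under 18.6.

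In log2(signal + 1) the ATRA difference of the CEBPB region was 0.81 in Cas9 control and 2.41 under the HK3-null label, beside medians over all regions of -0.24 and -0.12. The genotype difference in ATRA, by which regions were selected, was 2.13. In DMSO, the comparison that shares no library with the selection, it was 0.54 (SE 0.41) and did not pass (limma adjusted p = 0.216). All DMSO signals of the region lay under 17.1, the mean signal asked for by the filter. The region entered the test through its HK3-null ATRA libraries, which also took part in the selection, so the DMSO test can show little. None of the 5 motifs occurred in the region. Among the central 276 bases of the 7940 regions that are at least as long, 2.63% held the C/EBP palindrome and 23.7% the PU.1 core.

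The CEBPD region is 773 bases long, at chr8:47734808-47735580, 1.33 kb past the 3′ end of CEBPD and within an exon of SPIDR, a DNA repair gene on the opposite strand. Its signal was 64.4 and 65 in Cas9 control DMSO, 75.8 and 52.2 in Cas9 control ATRA, 134 and 123 in HK3-null DMSO, and 154 and 143 in HK3-null ATRA. Every HK3-null library stood above every Cas9 control library. The ATRA differences were -0.04 in Cas9 control, where the libraries overlapped, and 0.21 under the HK3-null label. The genotype difference in DMSO was 0.98 (SE 0.29, limma adjusted p = 0.00232), where 42.7% of the 6214 tested regions were higher. Over all 8286 deposited regions the quartiles of this difference were -1.70 and 1.39. Selection on the same genotypes in ATRA favours a pass in DMSO, so the pass is no independent support. The 908 tested regions of chromosome 8 had a median of 1.13 in the same comparison, and with it subtracted the difference was -0.16 and did not pass (limma adjusted p = 0.678, against 0.000153 at the other end of the alternatives tried).

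**Figure D4:**
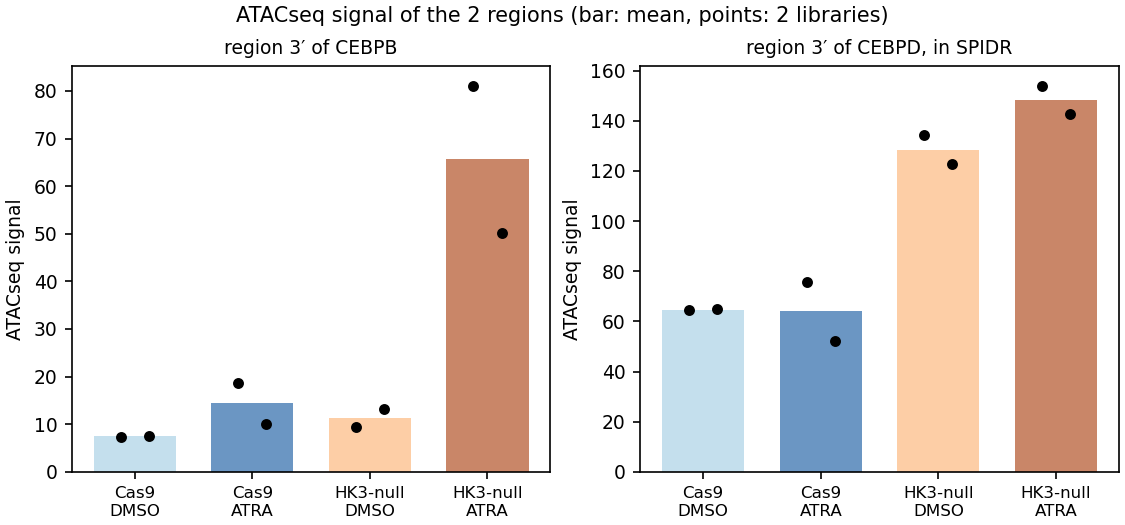
ATACseq signal (fragment density, linear axes from 0) of the region past the 3′ end of CEBPB and of the region past the 3′ end of CEBPD, in 4 groups. Bars are means and points the 2 libraries. The CEBPB region is high in the HK3-null ATRA libraries alone, and the CEBPD region is higher in all 4 HK3-null libraries.

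Transcripts next to the members were read for comparison. Of 17 tested neighbours and antisense transcripts, 1 rose and 3 fell with ATRA in Cas9 control, and 3 rose and 5 fell under the HK3-null label. Over all genes 20.3% rose and 21.3% fell in Cas9 control, and 24.0% rose and 25.1% fell under the HK3-null label. These ATRA counts lie near or under those shares. Between genotypes 7 were higher and 1 lower in DMSO, and 6 were higher and none lower in ATRA, where 11 did not pass (limma, with 0 lower also at an unadjusted p under 0.05). Over all genes 27.9% and 29.6% were higher and 27.1% and 29.5% lower in these genotype comparisons. MCM4, PRKDC, UBE2V2 and SPIDR, which were higher in both, lie on chromosome 8, whose medians were 1.09 and 1.06. CEBPB-AS1, which overlaps CEBPB on the other strand, had 27, 32 and 12 counts with DMSO and 128, 92 and 70 with ATRA in Cas9 control (log2 fold change 2.10, limma adjusted p = 0.00358). Under the HK3-null label it had 21, 14 and 21 counts with DMSO and 65, 209 and 101 with ATRA (2.60, limma adjusted p = 0.00067). The sequencing was directional, but whether the counting used strand is not stated, so reads of CEBPB and CEBPB-AS1 may not be told apart. The same holds for CEBPZ and CEBPZOS. CEBPZOS was 1449 to 1612 counts with DMSO and 1218 to 1490 with ATRA in Cas9 control, which did not pass (log2 difference -0.22, limma adjusted p = 0.0527), and under the HK3-null label it fell by 0.28 on the log2 scale (limma adjusted p = 0.015). CEBPA-AS1, the divergent transcript beside CEBPA, had group means of 255 to 309 and passed in no comparison.

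For each member, the 3 genes with the most similar profile over the 12 libraries were found among 10666 genes, by the root mean square difference of centred log2 values. CEBPZ lay nearest to NOL11, a nucleolar protein gene, at 0.042, and CEBPG nearest to CLNS1A at 0.051. CEBPE lay nearest to DNAJC4 at 0.095, CEBPA to KRI1 at 0.10, CEBPD to FIG4 at 0.13 and CEBPB to SLA, a signalling adaptor gene of blood cells, at 0.26. The distances grow with the spread of the member itself, whose SD ran from 0.23 (CEBPG) to 1.86 (CEBPB).

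Next were genes tied to the members by function, in lists of known partners, regulators and targets. Each count should be read against the share of all 13256 genes that passed. With ATRA 20.3% rose and 21.3% fell in Cas9 control, and 24.0% rose and 25.1% fell under the HK3-null label. Between genotypes 27.9% were higher and 27.1% lower in DMSO, and 29.6% higher and 29.5% lower in ATRA. Of 33 bZIP partners and relatives, 6 rose and 7 fell with ATRA in Cas9 control, and 8 rose and 5 fell under the HK3-null label. Between genotypes 14 were higher and 5 lower in DMSO, and 17 higher and 4 lower in ATRA. The ATRA counts lie near or under the all-gene shares. FOS, a subunit of AP-1, had a mean of 12.7 counts in Cas9 control DMSO, 21.3 in Cas9 control ATRA, 123 in HK3-null DMSO and 295 in HK3-null ATRA. It was higher under the HK3-null label by 3.30 in DMSO and 3.84 in ATRA on the log2 scale (limma adjusted p = 2.29e-06 and 5.73e-07).

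ATF5, a stress response factor, moved the other way. It fell with ATRA in Cas9 control from 19045 to 5451 counts (log2 fold change -1.81, limma adjusted p = 1.36e-05) and was lower under the HK3-null label in DMSO, at 3323 counts (-2.53, limma adjusted p = 4.42e-07). BATF2 had 1, 1 and 2 counts in Cas9 control DMSO and 126, 249 and 405 in ATRA, and 0 in all HK3-null DMSO libraries and 171, 233 and 325 in ATRA. DDIT3, which encodes CHOP, the bZIP protein that shares the name C/EBP zeta with CEBPZ, had means of 344 and 495 counts in Cas9 control and 460 and 821 under the HK3-null label, with DMSO and ATRA. It rose with ATRA by 0.54 and 0.84 on the log2 scale (limma adjusted p = 0.0136 and 0.000742). DDIT3 was chosen for its name after its values were seen.

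Regulators of C/EBP proteins, which set their stability, translation or activity, were called in both directions, as were all genes. Of 41 tested, 14 rose and 14 fell with ATRA in Cas9 control, and 15 rose and 13 fell under the HK3-null label. Between genotypes 12 were higher and 13 lower in DMSO, and 15 higher and 14 lower in ATRA. The genotype counts lie near the all-gene shares of 27.1% to 29.6%, so they are no result about this list. TRIB1, a pseudokinase that directs CEBPA protein to degradation, had 3056, 1924 and 1822 counts in Cas9 control DMSO and 7669, 5398 and 6138 in HK3-null DMSO. It was higher by 1.52 on the log2 scale (limma adjusted p = 9.47e-05), on chromosome 8, whose median was 1.09. CALR, calreticulin, which can hold back CEBPA translation, fell with ATRA from 109990 to 44173 counts in Cas9 control and from 113680 to 42079 under the HK3-null label (-1.32 and -1.44, limma adjusted p = 1.76e-07 and 5.09e-08). SOCS3, a brake on cytokine signalling, had 13, 0 and 3 counts in Cas9 control DMSO and 709, 890 and 870 in ATRA. STAT3 was 1.98-fold higher under the HK3-null label in DMSO, and SKP2, on chromosome 5, was lower (log2 difference -1.27, limma adjusted p = 1.33e-05).

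Known targets were split by stage. Of 19 tested promyelocyte targets, 6 rose and 9 fell with ATRA in Cas9 control and 7 rose and 6 fell under the HK3-null label, and between genotypes 9 were higher and 4 lower in DMSO and 12 higher and 3 lower in ATRA. Over all genes the shares with ATRA were 20.3% to 25.1% in each direction and between genotypes 27.1% to 29.6%. LYZ, lysozyme, had 8687, 8668 and 7998 counts in Cas9 control DMSO and 1778, 1691 and 1630 in ATRA, against 45925, 47014 and 45149 and 28965, 27895 and 25743 under the HK3-null label. It was higher under that label by 2.45 in DMSO and 4.02 in ATRA on the log2 scale (limma adjusted p = 7.7e-11 and 5.2e-12). CTSG, cathepsin G of the primary granules, fell with ATRA in both genotypes (-2.65 and -2.24) and was lower under the HK3-null label in DMSO (-1.78, limma adjusted p = 3.41e-08). CSF3R, the receptor for G-CSF, was higher by 1.16 in DMSO and 1.93 in ATRA under that label, and its ATRA response was 0.77 larger (limma adjusted p of the interaction = 0.000278). MPO did not pass between genotypes in either treatment (limma adjusted p = 0.974 in DMSO and 0.195 in ATRA) and was chosen after its values were seen.

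The later granulocyte targets had, among the 9 lists compared, the highest share of genes called higher under the HK3-null label. Of 31 tested, 28 were higher and 1 lower under the HK3-null label in DMSO, and 27 higher and 1 lower in ATRA. These 31 are the genes of 35 listed that passed the filter on low values, for which 1 high group is enough. A gene near 0 in 1 genotype can thus enter through the other and be called in that direction only. In DMSO 8 of the 31 had a group mean under 3 counts, and in ATRA 9 did. With group means under 3 counts set to 3, the median log2 ratio was 3.40 and 3.32. The median of the fitted log2 differences, which depends on how a count of 0 is stored, was 4.43 and 3.84. ITGAM, the CD11b integrin chain that marks maturing myeloid cells, had 23, 27 and 27 counts in Cas9 control DMSO, 1073, 1040 and 1289 in Cas9 control ATRA, 372, 355 and 322 in HK3-null DMSO and 1791, 1510 and 1915 in HK3-null ATRA. LTF, lactoferrin of the secondary granules, had at most 1 count in any Cas9 control library, 59 to 73 in HK3-null DMSO and 39 to 42 in HK3-null ATRA. PRG2, an eosinophil granule protein, fell with ATRA in both genotypes and was 7250 to 8164 counts in Cas9 control DMSO against 162637 to 170475 in HK3-null DMSO.

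With ATRA, 15 of these 31 rose and 7 fell in Cas9 control, and 14 rose and 3 fell under the HK3-null label. CYBB, the catalytic chain of the phagocyte oxidase, rose from 224 to 6085 counts in Cas9 control and from 8180 to 45698 under the HK3-null label. Its ATRA response was smaller under that label (interaction -2.29 on the log2 scale, limma adjusted p = 7.26e-06), the opposite sign to CEBPB. The interaction passed for 13 of the 31, 6 with a larger and 7 with a smaller response under the HK3-null label. Over all genes it passed for 9.12%. SLPI, a protease inhibitor, was the gene that was lower in both treatments.

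Inflammatory targets, often assigned to CEBPB and CEBPD, were also mostly higher under the HK3-null label. Of 23 tested, 17 were higher and none lower in DMSO, and 18 higher and none lower in ATRA, where 5 did not pass (limma, with 0 lower in DMSO and 1 in ATRA at an unadjusted p under 0.05). The median ratio with low means set to 3 counts was 5.83-fold and 6.2-fold. Of 31 genes listed, only these 23 passed the filter, which again 1 high group is enough to meet. In each treatment 5 of them had a group mean under 3 counts. ORM2, an acute phase protein, had 2, 2 and 3 counts in Cas9 control DMSO and 139, 117 and 140 in HK3-null DMSO. CCL2, a monocyte chemokine, rose with ATRA from 102, 56 and 26 to 5122, 4544 and 2983 counts in Cas9 control and from 479, 453 and 338 to 15625, 15972 and 9056 under the HK3-null label. With ATRA 11 of the 23 rose and 7 fell in Cas9 control, and 9 rose and 4 fell under the HK3-null label. The interaction passed for none of the 23 in limma, where it passed for 9.12% of all genes. At an unadjusted p under 0.05 in limma it was larger for 4 and smaller for 2. Genes with counts of 0 had wide errors, such as PTGES (SE 3.07 for ATRA against DMSO), so the test could miss a difference in them. NAMPT fell with ATRA in both genotypes (-0.63 and -0.85, limma adjusted p = 0.00111 and 9.22e-05).

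Other myeloid transcription factors gave the setting of the family. Of 33 tested, 9 rose and 10 fell with ATRA in Cas9 control and 10 rose and 10 fell under the HK3-null label, and between genotypes 16 were higher and 3 lower in DMSO and 14 higher and 4 lower in ATRA. The ATRA counts lie near the all-gene shares of 20.3% to 25.1%. Between genotypes the all-gene shares were 27.1% to 29.6% in each direction. Of 40 genes listed, only these 33 passed the filter, which 1 high group is enough to meet. In each genotype comparison 5 of them had a group mean under 3 counts, and such a gene can be called in 1 direction only. SPI1, which encodes PU.1, was 6630 and 7824 counts in Cas9 control and 9165 and 12253 under the HK3-null label, with DMSO and ATRA, and was higher under that label by 0.47 and 0.65 on the log2 scale (limma adjusted p = 2.01e-05 and 1.23e-06). IRF1 rose with ATRA by 2.53 and 3.00, and GATA2 fell, with log2 fold changes of -3.18 and -3.85. MYC, on chromosome 8, fell with ATRA from 47955 to 11508 counts in Cas9 control (-2.06, limma adjusted p = 6.97e-07).

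Most tested genes of the lists linked to CEBPG and CEBPZ were also lower after ATRA. Of 29 tested targets of ATF4 and CEBPG in the amino acid response, 19 fell and 2 rose with ATRA in Cas9 control and 18 fell and 3 rose under the HK3-null label. Between genotypes 16 were lower and 4 higher in DMSO, and 17 lower and 4 higher in ATRA. PHGDH, the first enzyme of serine synthesis, had 8908, 8558 and 8670 counts in Cas9 control DMSO, 6214, 5605 and 5623 in Cas9 control ATRA, 1617, 1396 and 1294 in HK3-null DMSO and 233, 211 and 178 in HK3-null ATRA. It was lower under the HK3-null label in both treatments (log2 differences -2.61 and -4.82, limma adjusted p = 4.24e-09 and 5.82e-11). ASNS, asparagine synthetase, fell with ATRA from 3857 to 1282 counts in Cas9 control and from 2291 to 451 under the HK3-null label. DDIT4 rose with ATRA in both genotypes (1.64 and 1.30). CEBPG itself did not pass between genotypes.

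Of 28 ribosome biogenesis genes, the process in which CEBPZ is placed, 27 fell and none rose with ATRA in Cas9 control, and all 28 fell under the HK3-null label (limma, with 0 higher in either genotype also at an unadjusted p under 0.05). The median log2 fold changes were -0.74 and -1.01, beside medians over all genes of 0.00 and 0.01. Between genotypes 16 were lower and 3 higher in DMSO and 23 lower and 2 higher in ATRA. NOC2L, which belongs to the same NOC group as CEBPZ, went from 12463 to 7342 counts with ATRA in Cas9 control and from 9451 to 4331 under the HK3-null label (-0.77 and -1.13, limma adjusted p = 2.24e-05 and 5.86e-07). It was named for that tie after its values were seen. NPM1, nucleophosmin, on chromosome 5, was lower under the HK3-null label in DMSO (log2 difference -1.21, limma adjusted p = 4.81e-07), beside a chromosome median of -0.75. MAK16 and BOP1, which were higher in both genotype comparisons, lie on chromosome 8.

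**Figure D5:**
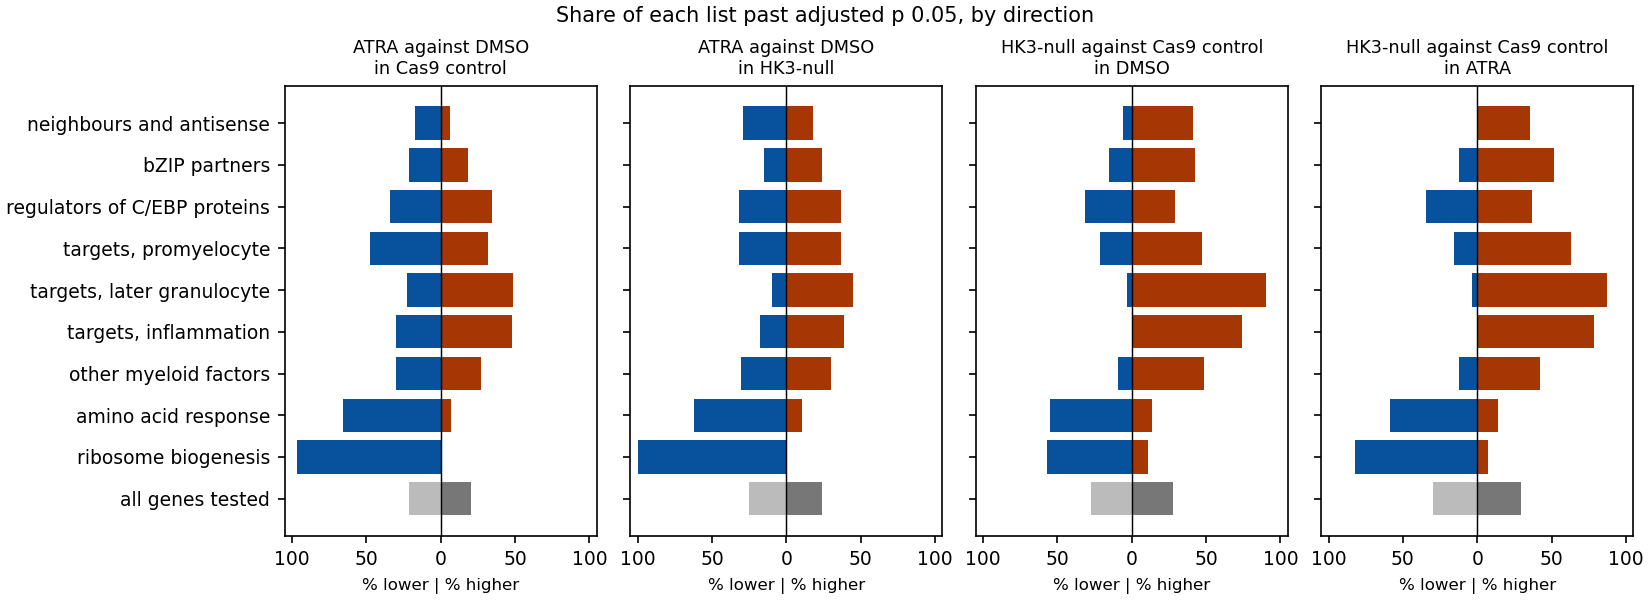
Share of the tested genes of 9 lists, and of all 13256 genes tested (grey), that passed an adjusted p under 0.05 in 4 comparisons. Bars to the right are higher, bars to the left lower, in percent of the list. The ribosome biogenesis list falls almost whole with ATRA, and 28 of 31 later granulocyte targets are higher under the HK3-null label in DMSO.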

How the data were processed

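RNAseq was done on 12 and ATACseq on 8 HL60 libraries. The RNAseq values were deposited as log2 of a count, which the authors scaled between libraries and rounded, with 0 stored as log2 of 0.001. The study's methods name RPKM, but no scaling by length was seen. Which aligner, counter and annotation were used is not stated, and the submitters' notes name DESeq2, MACS2 and hg38. The ATACseq signal is the authors' fragment density in merged MACS2 peaks after bwa alignment and reduction to equal tag numbers, so its depth is unknown.

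Genes whose group mean exceeded 3 on the log2 scale in 1 or more groups entered limma 3.58.1 (R 4.3.3, lmFit and eBayes with trend, Benjamini-Hochberg adjustment over 13256 genes, threshold 0.05), with 4 group means in 1 fit. ATACseq regions above the 25th percentile of mean signal were tested on log2(signal + 1). Count models were not run, because the values are scaled and rounded. All tests were two-sided. They were checked on simulated data. Levels per kb used the merged GENCODE v44 exons, and 100% of 1756 promoters read from hg38 equalled the RefSeq table. Of 9333 region and gene pairs, 99.5% lay within 100 kb in GRCh38. Rows with no gene name held at most 0.00926% of a library and were left out.

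Members, lists and tests were chosen with earlier results of these data known. The genes named in the text were drawn from a rule that took all members, HK3 and the neighbours, and from each other list and comparison up to 2 higher and 2 lower genes with the largest passing change, no overlap and a group mean of at least 50 counts, and genes of nearest profile. Values of these genes in further comparisons were added after they were seen. All 18 same-number pairs of libraries from different groups had correlated deviations from their group means (0.178 to 0.632). Across different numbers the correlations ran from -0.643 to 0.286. Samples thus appear paired by replicate number, but the main fits carried no replicate term. With the number as a block, 2898 genes passed the interaction in place of 1209. No 2 replicates agreed within sampling noise.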

Additional observations from a re-analysis of the deposited data

Results flagged for a closer look

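The ATRA response of 2 members differed between the genotypes by a test of the difference itself, the interaction term of the limma fit over 12 libraries. For CEBPB the log2 response under the HK3-null label exceeded that in Cas9 control by 0.91 (limma adjusted p = 0.0199, and from 0.00613 to 0.0826 in the alternatives). For CEBPD it exceeded it by 0.52 (limma adjusted p = 0.0384, and from 0.0107 to 0.0959 in the alternatives).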

How the results depend on the processing

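Of 30 pairs of a member and a comparison, 11 kept their call in all alternatives. No member changed direction among those called. With quantile normalization 3 members passed between genotypes in DMSO and 4 in the interaction. With no filter on low values the counts were 3 and 0, where 2 had an unadjusted p under 0.05 in the interaction (limma), and without the variance trend 1 passed in the interaction. At a fold change of at least 2, the members passing were 2 for ATRA in Cas9 control, 3 for ATRA in HK3-null, 1 for the genotypes in DMSO, 2 in ATRA and 0 for the interaction, also at an unadjusted p under 0.05. At an unadjusted p under 0.05 and 1.5-fold they were 3 for ATRA in Cas9 control, 3 for the genotypes in DMSO, 2 in ATRA and 1 for the interaction. These thresholds ask for a size as well, and for the other changes the cause was not tested. With the chromosome median subtracted, 3 members and 0 regions passed between genotypes in DMSO, and the CEBPD region went to -0.157. Leaving out 1 library at a time gave 3 to 5 members between genotypes in DMSO and 0 to 2 in the interaction. The replicate block moved the CEBPG difference in ATRA past the threshold at -0.12 (adjusted p = 0.0259, limma) and changed no other call of a member or region. The 3 RNAseq and 2 ATACseq libraries a group limit the precision, and ATACseq depth is unknown.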
